A study of Mus musculus with 8 samples.

Results

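The 46 genes described here mark macrophages and microglia. They were chosen by symbol from the deposited table of 15035 genes, which holds all 46, and they fall into 32 pan-macrophage genes, 9 markers of perivascular macrophages and 5 markers of microglia. Bulk RNA sequencing was done on auditory nerves dissected from mouse cochleas at postnatal day 21. Replicates 1 to 4 are wild type (4 libraries). Replicates 5 to 8 (4 libraries) are from mice labelled heterozygous for Mef2c, the gene of a MADS-box transcription factor. Each library holds the nerves of both cochleas of 1 mouse. The labels used here name no strain, sex, litter or targeted exon, and no agent is named for either group.

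Macrophages of the cochlea lie among the spiral ganglion neurons, along the nerve fibres and around the blood vessels, and they take up debris and respond to injury. Microglia are the resident macrophages of the central nervous system, and the central stump of the auditory nerve is myelinated by oligodendrocytes as in the brain. Both kinds of cell depend on the receptor Csf1r and on the transcription factor Spi1 (PU.1). Microglia add a set of surface genes that sense the state of neurons, such as P2ry12, while perivascular macrophages carry scavenger receptors such as Mrc1 and Cd163. Several of the pan-macrophage genes, among them Itgb2, Coro1a, Rac2 and Cybb, are also expressed by neutrophils.

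The libraries held an estimated 13363365 to 21507209 reads each, and levels are given as normalized counts, that is read counts divided by a size factor for each library. Log2 fold changes are heterozygote minus wild type on the log2(normalized count + 1) scale. The libraries of replicates 1 and 5 were low in Xist, which coats the inactive X chromosome (12 and 7.6 normalized counts, where the remaining 6 had 5175 to 8615). Mef2c itself was at 402.2 to 508.7 normalized counts in wild type and 583.3 to 735.1 under the heterozygote label, a log2 fold change of 0.53 (limma-trend adjusted p 0.186). The authors' deposited table gives Mef2c a ratio of 1.44 with an FDR of 0.0162. The ranges did not overlap and lie opposite to a lost copy, so each direction given here compares labels. All 8 libraries held the defining macrophage genes, with Csf1r at 910.3 to 1277 and Cx3cr1 at 273.7 to 680.0 normalized counts. In bulk tissue, fewer cells of a type and less RNA per cell cannot be told apart.

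Macrophage and microglia genes differed between the genotypes about as often as genes at large. Of the 46 members, 23 had a positive and 23 a negative log2 fold change, and their median was close to 0.00, beside 0.02 over all 14870 genes tested. With limma-trend and Benjamini-Hochberg adjustment over all genes, 0 of the 46 members passed 0.05, beside 0.0807% of all genes (0.00672% higher and 0.074% lower). The lowest limma-trend adjusted p among the members was 0.266. At an unadjusted limma-trend p under 0.05 there were 6 members, or 13%, beside 14.1% of all genes. Of these, 3 were higher in the libraries labelled heterozygote (Tmem119, Cybb and Ms4a6c), beside 6.72% of all genes, and 3 were lower (Siglech, P2ry12 and Trem2), beside 7.34%. With limma-voom on estimated reads 0 members passed the adjusted threshold and the counts at an unadjusted p under 0.05 were also 3 and 3. By the authors' deposited table, an unadjusted p under 0.05 was found in 7 members, or 15.2%, beside 15.3% of all genes. An FDR under 0.05 in the authors' deposited table was found in 0 members, beside 1.61% of all genes, and their lowest FDR was 0.118. The share of members that differed was therefore near the background by either analysis. The genotypes did not overlap in 2 of the 46 members (4.35%), beside 7.26% of all genes (3.4% higher and 3.86% lower).

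**Figure D1:**
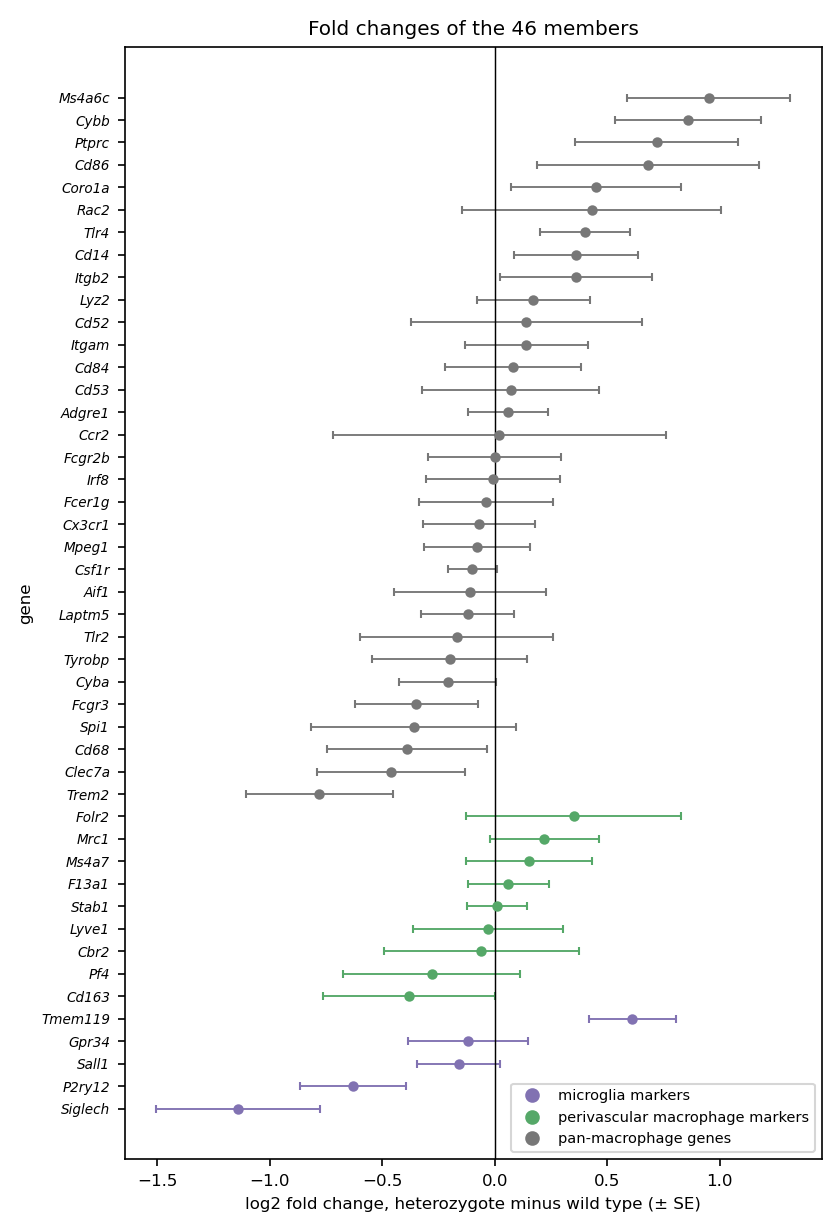
Log2 fold change of each of the 46 members, heterozygote minus wild type, on the log2(normalized count + 1) scale, with the standard error from limma-trend as a bar and the subgroup as colour. The members spread on both sides of 0, from -1.14 for Siglech to 0.95 for Ms4a6c, and none passed the adjusted threshold.

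The upstream sequences of 5 of the 6 members with an unadjusted p under 0.05 are shown because these members are described library by library, although their number is at the background share and none passed the adjusted threshold. They are the 150 bases before the RefSeq gene start (build GRCm38.p6), 5′ to 3′ on the strand of the gene. Capitals mark the 6 letters GAGGAA or, for the other strand, TTCCTC, taken here as the core of a PU.1 site.
P2ry12: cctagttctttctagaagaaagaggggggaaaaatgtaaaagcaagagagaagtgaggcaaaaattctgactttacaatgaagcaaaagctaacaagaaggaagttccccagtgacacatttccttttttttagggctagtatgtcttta
Siglech: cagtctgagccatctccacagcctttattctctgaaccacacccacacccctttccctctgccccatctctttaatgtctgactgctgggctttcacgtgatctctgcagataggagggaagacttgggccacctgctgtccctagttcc
Trem2: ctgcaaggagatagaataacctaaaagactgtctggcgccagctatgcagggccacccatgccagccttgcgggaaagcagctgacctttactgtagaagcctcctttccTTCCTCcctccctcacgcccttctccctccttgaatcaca
Cybb: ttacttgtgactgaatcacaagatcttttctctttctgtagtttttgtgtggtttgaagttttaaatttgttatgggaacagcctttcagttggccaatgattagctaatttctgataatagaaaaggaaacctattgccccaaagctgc
Ms4a6c: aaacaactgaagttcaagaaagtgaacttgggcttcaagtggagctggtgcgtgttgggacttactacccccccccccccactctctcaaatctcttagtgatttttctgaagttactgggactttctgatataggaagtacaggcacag
P2ry12 lies at chr3:59262986-59263135 on the minus strand, and Siglech at chr7:55768034-55768183 on the plus strand. Trem2 lies at chr17:48346251-48346400 on the plus strand, Cybb at chrX:9469325-9469474 on the minus strand, and Ms4a6c at chr19:11469218-11469367 on the plus strand. Only the Trem2 window among these 5 held these 6 letters, with the first base 40 bases before the gene start. The shorter GGAA occurs in the other windows too and was not marked. RefSeq gave upstream sequence for 33 of the 46 members, and Tmem119 is not among them. Over the 250 bases before the start, on both strands, the core was present in 14 of these 33 members (42.4%), beside 25.9% of all 27025 genes with a sequence and 3076 of the 11844 with a sequence in the deposited table. It was found in 5 of 8 perivascular markers, 9 of 22 pan-macrophage genes and 0 of 3 microglia markers. The RefSeq start of P2ry12 was not found in the GENCODE M21 transcripts of that gene, so the place of its window is uncertain. The MEF2 consensus site, which can share no more than an end base with that core, was found in 1 of the 33 members (Aif1), beside 3.42% of all genes and 1.99% of the genes of the deposited table. A match is a match of letters and shows no binding.

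Microglia markers split in direction. In P2ry12 and Siglech every library labelled heterozygote lay below every wild-type one, Tmem119 was higher on average, and Sall1 and Gpr34 differed by less than the spread between libraries. P2ry12, a purinergic receptor by which microglia sense ADP, had 140.2, 135.6, 108.2 and 128.0 normalized counts in wild-type libraries 1 to 4. In the libraries labelled heterozygote it had 58.7, 88.9, 89.5 and 95.6, in the order of replicates 5 to 8. The groups did not overlap, and library 5 was the lowest. The means were 128.0 ± 14.1 and 83.2 ± 16.6 (SD, n = 4 each), and the log2 fold change was -0.63 ± 0.24 (SE). The limma-trend p was 0.0198 before and 0.294 after adjustment.

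Siglech, a sialic acid-binding receptor of microglia that also marks plasmacytoid dendritic cells, had 92.1, 71.8, 53.2 and 77.3 normalized counts in wild-type libraries 1 to 4. Heterozygote-labelled libraries 5 to 8 had 21.7, 47.9, 22.6 and 45.9. Again the groups did not overlap, with libraries 5 and 7 lowest. The log2 fold change was -1.14 ± 0.37 (SE), and the limma-trend p was 0.00896 before and 0.266 after adjustment. An exact permutation test (two-sided) gave 0.0286 for P2ry12 and for Siglech, the lowest p possible with 4 against 4. Any gene without overlap gets this p, so it adds nothing to the non-overlap. Non-overlap in this direction was seen in 3.86% of all genes. The same permutation test gave 0.0571 for Trem2 and 0.0857 for each of Tmem119, Cybb and Ms4a6c. The ratios in the authors' deposited table were 0.652 for P2ry12 (FDR 0.179) and 0.473 for Siglech (FDR 0.118).

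Set against Csf1r in the same library, P2ry12 had 11 to 12.8 normalized counts per 100 of Csf1r in wild type and 6.45 to 9.35 in the libraries labelled heterozygote. Siglech had 5.49 to 7.71 and 2.15 to 4.69. Both ratios were without overlap between the genotypes, as the levels were, and no share of all genes on this scale stands beside them. Csf1r itself had a log2 fold change of -0.10, so these ratios largely repeat the levels. Gpr34, a lysophosphatidylserine receptor of microglia, had 5.95 to 7.35 and 5.23 to 7.90 per 100 of Csf1r, and these ranges overlapped. The ranges per 100 of Csf1r also overlapped for Sall1, Trem2, Cx3cr1, Cybb and Mrc1.

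Tmem119, a membrane protein used as a marker of microglia and also known from osteoblasts, had 737.1, 534.6, 392.3 and 436.0 normalized counts in wild-type libraries 1 to 4. Its values in heterozygote-labelled libraries 5 to 8 were 643.0, 862.6, 928.2 and 703.2. Wild-type library 1 lay above 2 of the libraries labelled heterozygote, so the groups overlapped. The log2 fold change was 0.61 ± 0.19 (SE), and the limma-trend p was 0.00871 before and 0.266 after adjustment. Without the 2 libraries low in Xist the log2 fold change was 0.87 (limma-trend adjusted p 0.0858). Per 100 of Csf1r, Tmem119 had 40.5 to 57.7 in wild type and 68.8 to 88.5 in the libraries labelled heterozygote. These ranges did not overlap, and no share of all genes on this scale stands beside them.

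Markers of other cell types differed in the same libraries. Of 8 oligodendrocyte markers, 6 had an unadjusted limma-trend p under 0.05, all lower in the libraries labelled heterozygote, beside 7.34% of all genes. Of the 8, 5 passed the adjusted threshold, all lower, beside 0.074% of all genes. Their summed level was 94022 to 129306 normalized counts in wild type and 43642 to 62736 in the libraries labelled heterozygote, and none was at 0. Mog, a protein of the outer myelin sheath of oligodendrocytes, fell from 1794 ± 284 to 694.0 ± 207.1 normalized counts (SD, n = 4 each; limma-trend adjusted p 0.0354). It was lowest in library 5, where P2ry12 and Siglech were also lowest. Beside Tmem119, the 12 osteoblast and osteocyte markers, a list added after the data were seen, all had positive log2 fold changes with a median of 0.64. Of these 12, 5 were higher at an unadjusted limma-trend p under 0.05, beside 6.72% of all genes, and 0 passed the adjusted threshold. Their summed level was 46460 to 60270 normalized counts in wild type and 50837 to 70500.5 in the libraries labelled heterozygote, and none was at 0. Alpl, the tissue non-specific alkaline phosphatase of osteoblasts, had 466.2 to 1126.5 normalized counts in wild type and 1089.5 to 1719 in the libraries labelled heterozygote. The part of these cell types in the values of P2ry12, Siglech and Tmem119 was not tested.

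Sall1, a zinc finger transcription factor of microglia, had 325.7, 527.5, 392.3 and 484.3 normalized counts in wild-type libraries 1 to 4. It had 325.9, 324.1, 422.2 and 469.7 in heterozygote-labelled libraries 5 to 8, and the groups overlapped in part: wild-type libraries 2 and 4 lay above all of these and library 6 below every wild-type library. The log2 fold changes were -0.16 for Sall1 and -0.12 for Gpr34 (limma-trend adjusted p 0.702 and 0.849). Per kilobase of the longest annotated transcript, mean levels ran in the order Tmem119 at 292, Sall1 at 77.7, P2ry12 at 45, Gpr34 at 33.6 and Siglech at 23.5 normalized counts. Tmem119 thus stood above the other microglia markers on this scale. The median log2 fold change of the 5 markers was -0.16, and with members in both directions it describes none of them.

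**Figure D2:**
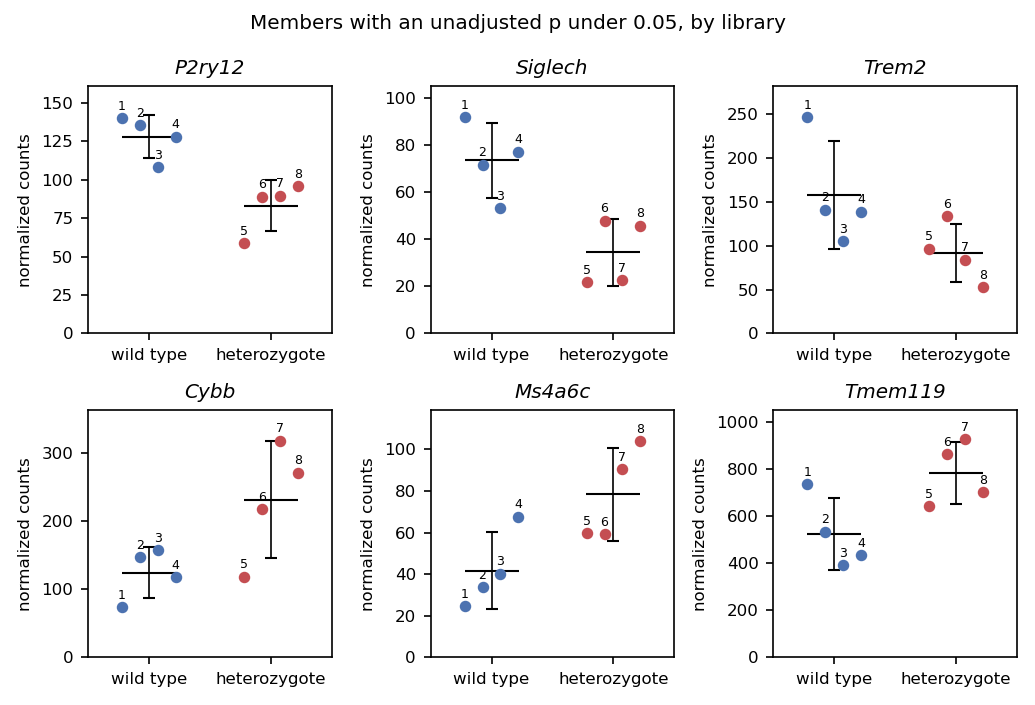
Normalized counts of the 6 members with an unadjusted limma-trend p under 0.05, 1 point per library with its replicate number, wild type in blue and the libraries labelled heterozygote in red, and the mean with its SD (n = 4 each) in black. P2ry12 and Siglech did not overlap between genotypes, and the other 4 genes did.

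Among Fc receptors, ITAM adaptors and their partners (Tyrobp, Fcer1g, Fcgr3, Fcgr2b, Trem2 and Clec7a), only Trem2 of 6 (16.7%) had an unadjusted limma-trend p under 0.05, beside 14.1% of all genes. None of the 6 passed the adjusted threshold. Of the 6, 1 (16.7%) had a positive log2 fold change, beside 52.3% of all genes, and their median was -0.28. Trem2, a lipid-sensing receptor that pairs with Tyrobp, had 246.6, 141.2, 105.4 and 138.9 normalized counts in wild-type libraries 1 to 4. In heterozygote-labelled libraries 5 to 8 it had 96.7, 133.3, 83.9 and 52.5. The groups overlapped through wild-type library 3 and library 6. The log2 fold change was -0.78 ± 0.33 (SE), and the limma-trend p was 0.0340 before and 0.326 after adjustment. It was -0.55 without wild-type library 1, the highest, and also -0.55 without library 8, the lowest, with limma-trend p of 0.0983 and 0.113. Without libraries 7 and 8 together it was -0.40.

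Tyrobp (DAP12), the adaptor that carries the signal of Trem2, had 233.6, 96.2, 95.3 and 128.0 normalized counts in wild-type libraries 1 to 4 and 68.4, 101.9, 166.8 and 135.0 in libraries 5 to 8. Wild-type library 1 was the highest and library 5 the lowest, with the others mixed. Fcgr3, an activating receptor for immunoglobulin G whose close relatives can share its reads, had 219.3, 135.6, 152.2 and 201.7 in wild type and 82.6, 134.2, 185.6 and 166.0 in the libraries labelled heterozygote. Library 5 was again the lowest, and the other values overlapped. The log2 fold changes were -0.20 for Tyrobp and -0.35 for Fcgr3 (limma-trend adjusted p 0.807 and 0.557). Fcer1g, the adaptor of the activating Fc receptors, and Fcgr2b, the inhibitory Fc receptor, had log2 fold changes of -0.04 and 0.00. Clec7a, the beta-glucan receptor Dectin-1, had -0.46.

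Receptors and transcription factors that define the lineage gave no difference past the test. Csf1r, the receptor for CSF1 and IL-34, had 1277, 1065, 969.8 and 1002.5 normalized counts in wild-type libraries 1 to 4 and 910.3, 1020, 1049 and 1022 in libraries 5 to 8. It was the steadiest of these genes, with a log2 fold change of -0.10 and a standard error of 0.11 (limma-trend adjusted p 0.679). Cx3cr1, the fractalkine receptor, had 680.0, 404.5, 512.4 and 359.9 in wild type and 273.7, 568.1, 489.1 and 544.7 in the libraries labelled heterozygote. Its highest and lowest libraries were again wild-type library 1 and library 5, and the log2 fold change was -0.07. Spi1, Irf8 (a transcription factor of the myeloid lineage) and Ccr2 (the chemokine receptor of recruited monocytes) had log2 fold changes of -0.36, -0.01 and 0.02 (limma-trend adjusted p 0.727 or more). Ccr2 was the lowest member per kilobase, at 5.26 normalized counts, with 4.8 to 65.0 normalized counts over the libraries.

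Among the leukocyte membrane and cytoskeletal genes, only Ms4a6c of 12 (8.33%) had an unadjusted limma-trend p under 0.05, beside 14.1% of all genes, and none passed the adjusted threshold. Of the 12, 10 (83.3%) had a positive log2 fold change, beside 52.3% of all genes, and their median was 0.14. Ms4a6c, a membrane protein of a family whose near-identical members can share reads, had 24.7, 33.9, 40.3 and 67.6 normalized counts in wild-type libraries 1 to 4. It had 59.7, 59.2, 90.5 and 104.1 in heterozygote-labelled libraries 5 to 8. Wild-type library 4 overlapped with libraries 5 and 6. The log2 fold change was 0.95 ± 0.36 (SE), and the limma-trend p was 0.0230 before and 0.300 after adjustment. Ptprc (CD45), the tyrosine phosphatase of all white blood cells, had a log2 fold change of 0.72 (limma-trend p 0.0706 before and 0.383 after adjustment). It had 51.9 to 106.5 normalized counts in wild type and 63.0 to 183.8 in the libraries labelled heterozygote. The ratio of Ptprc in the authors' deposited table was 1.70 with an unadjusted p of 0.0344 and an FDR of 0.282.

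Laptm5, a lysosomal protein of blood cells, had 803.3, 531.5, 490.4 and 594.3 normalized counts in wild-type libraries 1 to 4 and 387.8, 545.4, 769.9 and 555.1 in libraries 5 to 8. Coro1a, an actin-binding protein of leukocytes, had 375.1, 202.7, 122.8 and 178.8 in wild type and 184.7, 179.5, 495.7 and 360.0 in the libraries labelled heterozygote. Both were high in wild-type library 1 and in library 7. Their log2 fold changes were -0.12 and 0.45 (limma-trend adjusted p 0.815 and 0.583). Rac2, the blood cell form of the GTPase Rac, and Itgb2, the beta subunit of the leukocyte integrins, followed Coro1a with 196.0 and 214.9 normalized counts in library 7 and 125.6 and 158.5 in library 8. In library 5 they had 34.8 and 68.4. Adgre1 (F4/80), a surface marker of mature macrophages, kept to a narrow range of 138.9 to 178.1 normalized counts over all libraries. The other genes of this group (Itgam, Cd53, Cd52, Cd84 and Aif1) had log2 fold changes between -0.11 and 0.14.

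The subunits of the phagocyte oxidase described here, which together make superoxide, gave log2 fold changes on both sides of 0, and none passed the adjusted threshold. Cybb, its catalytic subunit gp91phox, had 74.0, 146.7, 157.7 and 117.2 normalized counts in wild-type libraries 1 to 4. In heterozygote-labelled libraries 5 to 8 it had 118.4, 217.0, 317.6 and 271.0. Libraries 6 to 8 lay above every wild-type library and library 5 did not. The log2 fold change was 0.86 ± 0.33 (SE), and the limma-trend p was 0.0215 before and 0.296 after adjustment. Cyba, the partner subunit p22phox, had 1287, 713.6, 546.3 and 818.9 in wild type and 632.2, 767.6, 773.7 and 616.0 in the libraries labelled heterozygote. Its groups overlapped, with a log2 fold change of -0.21 (limma-trend adjusted p 0.666). Of the cytosolic subunits, Ncf1 had 93.0 to 162.4 normalized counts in wild type and 163.8 to 354.3 under the heterozygote label, without overlap. Its log2 fold change was 1.02, and the limma-trend p was 0.00284 before and 0.222 after adjustment. Ncf4 had a log2 fold change of -0.05.

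**Figure D3:**
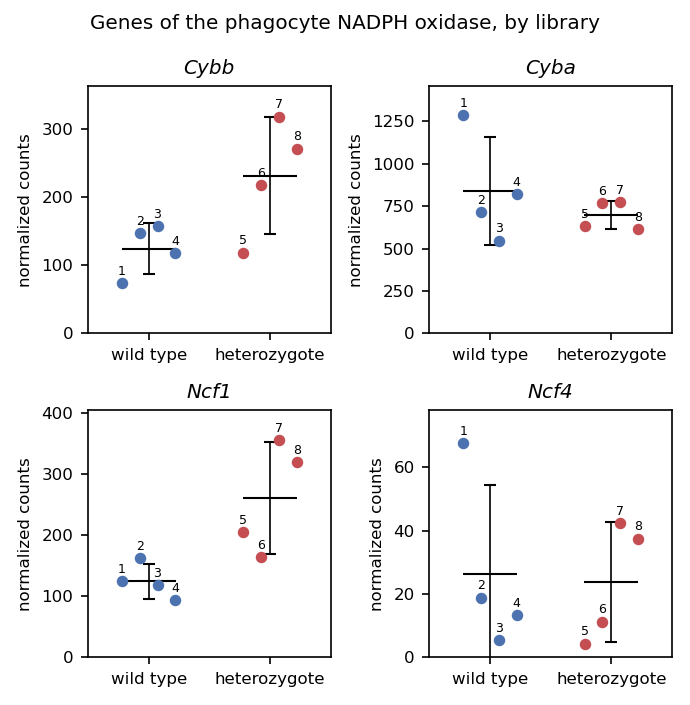
Normalized counts of 4 genes of the phagocyte oxidase by library, 1 point per library with its replicate number, wild type in blue and the libraries labelled heterozygote in red, with mean and SD (n = 4 each) in black. Cybb and Ncf1 were highest in library 7, while Cyba was highest in wild-type library 1.

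Neutrophil markers were highest on median in libraries 7 and 8, as were several leukocyte and oxidase genes. Of 11 markers, 6 were tested and the other 5 were not analysed here. Of the 6, 5 had an unadjusted limma-trend p under 0.05, all higher, beside 6.72% of all genes, and 0 passed the adjusted threshold. Their summed level was 145.0 to 2567 normalized counts in wild type and 737.1 to 6433 in the libraries labelled heterozygote, and none was at 0. The wild-type maximum is library 1, where Ltf, the iron-binding lactoferrin of neutrophil granules, had 2176 normalized counts. Of 6 monocyte markers 3 were tested, all with positive log2 fold changes. Chil3 and Nr4a1 had an unadjusted limma-trend p under 0.05, as had 14.1% of all genes, and Ly6c2 had a limma-trend p of 0.145. The summed level of these 3 was 236.2 to 333.2 normalized counts in wild type and 361.6 to 1387 in the libraries labelled heterozygote. Nr4a1 made up most of the wild-type sum, with 188.2 to 307.5 normalized counts. It did not follow Ly6c2: in library 5 Nr4a1 had 420.4, above every wild-type library, and Ly6c2 had 11.1. Chil3 alone had 60.8, 20.9, 663.4 and 499.7 in libraries 5 to 8. S100a9, a calcium-binding protein abundant in neutrophils, had 29.0 to 54.1 normalized counts in wild type and 328.0, 111.5, 1689 and 1349 in libraries 5 to 8. Libraries 7 and 8 were thus the highest in S100a9, as they were in Cybb, Coro1a, Rac2, Itgb2, Ptprc and Ms4a6c, apart from Coro1a, where wild-type library 1 exceeded library 8. Without these 2 libraries, a comparison added after the data were seen, 0 members were higher at an unadjusted limma-trend p under 0.05, beside 1.89% of all genes. There, 3 members were lower (P2ry12, Siglech and Spi1), or 6.52%, beside 2.76% of all genes, and 0 passed the adjusted threshold. Cybb then had a log2 fold change of 0.43 and Ms4a6c of 0.60, with limma-trend p of 0.299 and 0.252. Those of P2ry12 and Siglech were -0.81 and -1.14. These 2 libraries are also the highest in Cybb and Ms4a6c, so a smaller difference in those genes follows from the choice of libraries, and over all genes 0 passed the adjusted threshold there. The part of neutrophils and monocytes in the leukocyte values was not tested. Among the tested markers of other cell types, some had an unadjusted limma-trend p under 0.05, beside 14.1% of all genes. Higher were 1 of 3 osteoclast (Mmp9), 1 of 3 B cell (Cd79a) and 1 of 1 mast cell (Kit) markers. Lower were 2 of 6 endothelial markers (Cldn5 and Emcn). Such a p was found for 0 of 3 dendritic cell, 0 of 1 T and NK cell, 0 of 6 erythroid, 0 of 6 Schwann cell and 0 of 8 spiral ganglion neuron markers. Acp5 and Ctsk, the other tested osteoclast markers, had a limma-trend p of 0.747 and 0.79. The other 4 mast cell markers listed were not analysed here, so Kit alone stands for that list.

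Lysosomal and antimicrobial genes showed no common direction. Lyz2, a lysozyme of macrophages and neutrophils with a near-identical neighbour, had 1932, 1032, 1122 and 984.4 normalized counts in wild-type libraries 1 to 4 and 915.7, 1171, 1962 and 1672 in libraries 5 to 8. The highest values were shared by wild-type library 1 and library 7, and the log2 fold change was 0.17 (limma-trend adjusted p 0.774). Per kilobase, Cyba and Lyz2 were the most abundant of the 46 members, at 1034 and 1025 normalized counts. Mpeg1 (perforin-2) and Cd68, a lysosomal membrane protein used to stain phagocytes, had log2 fold changes of -0.08 and -0.39.

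Innate sensors gave no difference past the test. Tlr4, the receptor for bacterial lipopolysaccharide, had 172.6, 147.5, 192.5 and 128.0 normalized counts in wild-type libraries 1 to 4 and 166.2, 244.0, 211.1 and 221.3 in libraries 5 to 8. Libraries 6 to 8 lay above every wild-type library, and the log2 fold change was 0.40 (limma-trend p 0.0698, adjusted 0.383). Cd14, its co-receptor, had 155.7, 130.1, 100.8 and 62.8 in wild type and 136.9, 141.2, 144.2 and 127.5 in the libraries labelled heterozygote. It varied more among wild-type mice than among the others, with a log2 fold change of 0.36 (limma-trend adjusted p 0.545). Tlr2 and Cd86, the latter a costimulatory ligand for T cells, had log2 fold changes of -0.17 and 0.68 (limma-trend adjusted p 0.874 and 0.532).

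Perivascular macrophage markers overlapped between the genotypes in every case. Of the 9 markers, 5 had a positive and 4 a negative log2 fold change, from -0.38 for Cd163 to 0.35 for Folr2, and their median was 0.01. No marker had an unadjusted limma-trend p under 0.05, and the lowest adjusted p was 0.654. Stab1, a scavenger receptor of perivascular macrophages and sinusoidal endothelium, had 999.3, 748.3, 764.5 and 670.4 normalized counts in wild-type libraries 1 to 4 and 710.4, 834.7, 884.0 and 757.6 in libraries 5 to 8. Mrc1 (CD206), the mannose receptor, had 446.4, 449.5, 402.4 and 207.8 in wild type and 331.3, 494.0, 397.7 and 481.0 in the libraries labelled heterozygote. The groups overlapped in both, with wild-type library 4 low in Mrc1. The log2 fold changes were 0.01 with a standard error of 0.14 for Stab1 and 0.22 with 0.24 for Mrc1. F13a1, the A chain of coagulation factor XIII, was steady at 156.7 to 221.5 normalized counts. Pf4, a chemokine of platelets and tissue macrophages, and Lyve1, a hyaluronan receptor, had log2 fold changes of -0.28 and -0.03. Ms4a7, a membrane protein of the same family as Ms4a6c, had 0.15. Cbr2, a carbonyl reductase, ranged widely from 51.6 to 233.6 normalized counts.

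Between the subgroups, 3 of 5 microglia markers, 3 of 32 pan-macrophage genes and 0 of 9 perivascular markers had an unadjusted limma-trend p under 0.05. The shares were 60.0%, 9.38% and 0%, beside the same 14.1% of all genes. The medians of the log2 fold changes were -0.16, 0.01 and 0.01. The difference between subgroups was not tested, and 5 microglia genes are few.

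Other genes of macrophage biology were read from the same fit. Of 16 core genes of tissue macrophages, 1 was higher and 2 were lower at an unadjusted limma-trend p under 0.05 (18.8%), beside 14.1% of all genes. Their median log2 fold change was -0.10. Ncf1 was the higher one. Lgmn (legumain), a lysosomal protease strongly expressed in microglia, was among the lower ones and had 3294 to 4188 normalized counts in wild type and 2946 to 3225 in the libraries labelled heterozygote, without overlap. Its log2 fold change was -0.26 (limma-trend adjusted p 0.278). The complement genes C1qa, C1qb and C1qc had log2 fold changes of -0.26, -0.19 and -0.12 (limma-trend adjusted p 0.531 or more).

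Of 12 tested kinases, adaptors and brakes of ITAM signalling, 1 was higher and 0 were lower (8.33%, beside 14.1% of all genes), and the median was 0.30. The 1 was Plcg2, a phospholipase downstream of Trem2 and the Fc receptors, with 87.0 to 161.9 normalized counts in wild type and 162.1 to 272.3 in the libraries labelled heterozygote. The groups did not overlap, though only narrowly, and the log2 fold change was 0.72 (limma-trend p 0.0106, adjusted 0.266). Blnk and Inpp5d (SHIP1) had -0.58 and 0.31. Of 6 tested ligands and chemoattractants, 0 had an unadjusted limma-trend p under 0.05. The 2 ligands of Csf1r, Csf1 and Il34, had log2 fold changes of -0.11 and 0.03, and Cx3cl1, the ligand of Cx3cr1, had -0.07. Of 8 phagocytic receptors and bridging molecules 0 passed that mark, with Mertk at 0.30 and Axl at 0.28. Of 9 transcription factors 1 was lower, the inhibitor Id2 at -0.27 (limma-trend p 0.0394, adjusted 0.334). None of the genes in these 5 lists passed the adjusted threshold.

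On median, members varied more between mice of 1 genotype than genes at large. The SD within genotype on the log2 scale had a median of 0.46 over the 46 members, beside 0.24 over all genes tested. It was 0.47 for the pan-macrophage genes, 0.47 for the perivascular markers and 0.29 for the microglia markers. These medians were not matched for level. Most members lay below the median level of all genes, which was 461.1 to 472.2 normalized counts per library. The part of level in the spread was not tested. Wild-type library 1 was the highest library in 21 of the 46 members (45.7%), beside 26.1% of all genes, and the lowest in 3 (6.52%), beside 27.6%. It also stood apart in length, with levels that changed by -0.21 on the log2 scale per doubling of transcript length, where the other libraries had -0.098 to 0.148. With a correction for transcript length, the log2 fold changes of the short members Cyba, Pf4 and Tyrobp were 0.05, 0.01 and 0.09 in place of -0.21, -0.28 and -0.20. Those of Cd52, Fcer1g and Aif1, also short, were 0.45, 0.23 and 0.12 in place of 0.14, -0.04 and -0.11. The correction thus shifted all of these short members upward, not only toward 0. Library 7 was the highest in 14 (30.4%), beside 8.21% of all genes. Library 5 was the lowest in 16 (34.8%), beside 10.3% of all genes. Wild-type library 1 and library 5 are also the 2 libraries low in Xist. As medians of the deviation from each gene's mean, the 46 members lay at 0.44 in wild-type library 1, 0.26 in library 7 and -0.33 in library 5 on the log2 scale. The other libraries lay between -0.22 and 0.15. Perivascular markers were raised mainly in wild-type library 1 (0.57), while the pan-macrophage genes were raised in wild-type library 1 (0.46) and library 7 (0.37). Without the 2 libraries low in Xist, 8 members were higher (17.4%), beside 7.16% of all genes, and 0 lower, beside 6.37%, at an unadjusted limma-trend p under 0.05. The 8 were Tmem119, Cybb, Lyz2, Ptprc, Itgb2, Coro1a, Tlr4 and Ms4a6c, and 0 passed the adjusted threshold, beside 0.0605% of all genes. The log2 fold change was then -0.43 for P2ry12 and -0.84 for Siglech (limma-trend p 0.0896 and 0.0538). Libraries 7 and 8, the highest in neutrophil markers, make up 2 of the 3 libraries labelled heterozygote that remain there.

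**Figure D4:**
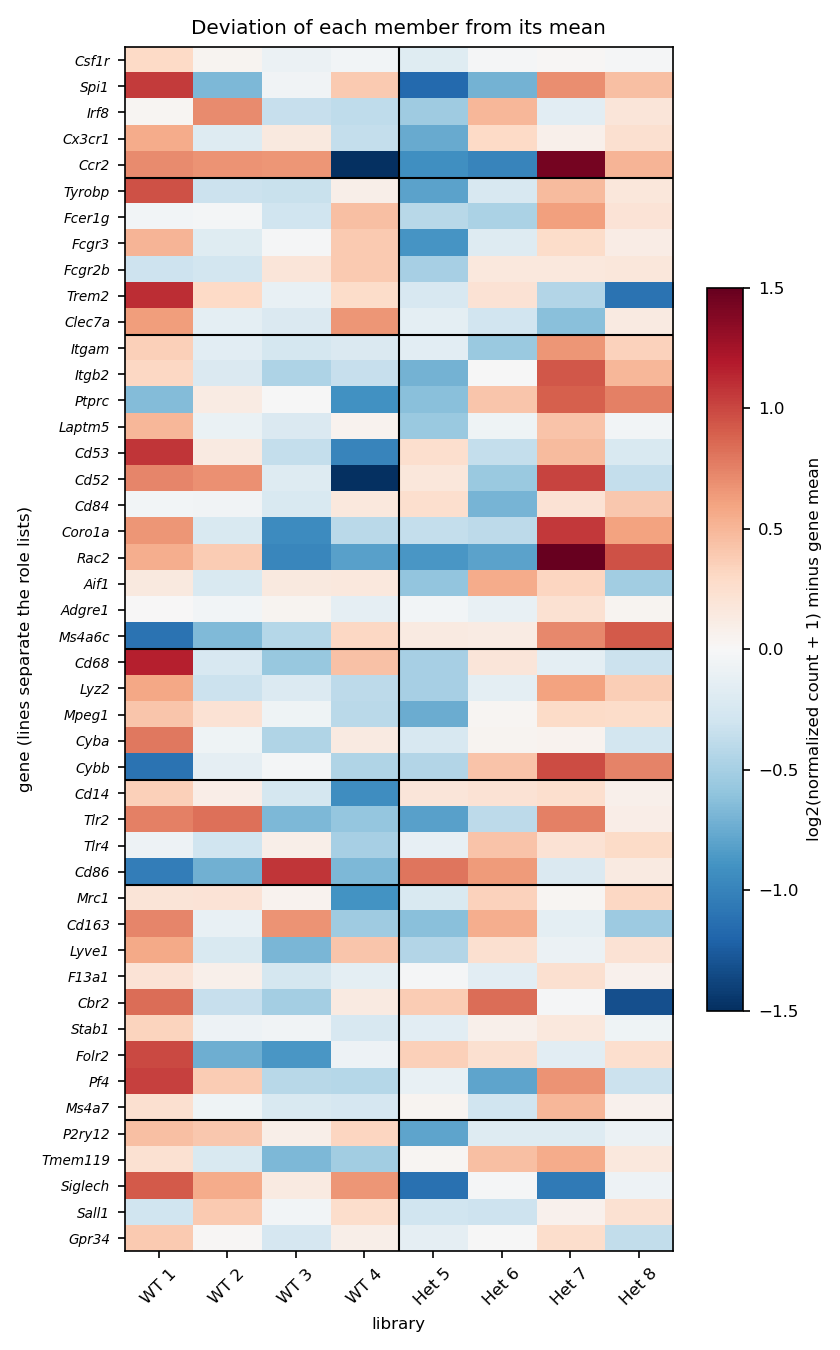
Deviation of each member from its mean over the 8 libraries, on the log2(normalized count + 1) scale, with colours capped at 1.5 in either direction, genes in rows by role list and libraries in columns. Wild-type library 1 and library 7 were high in many rows and library 5 low, while P2ry12 and Siglech separate the left from the right columns.

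**Figure D5:**
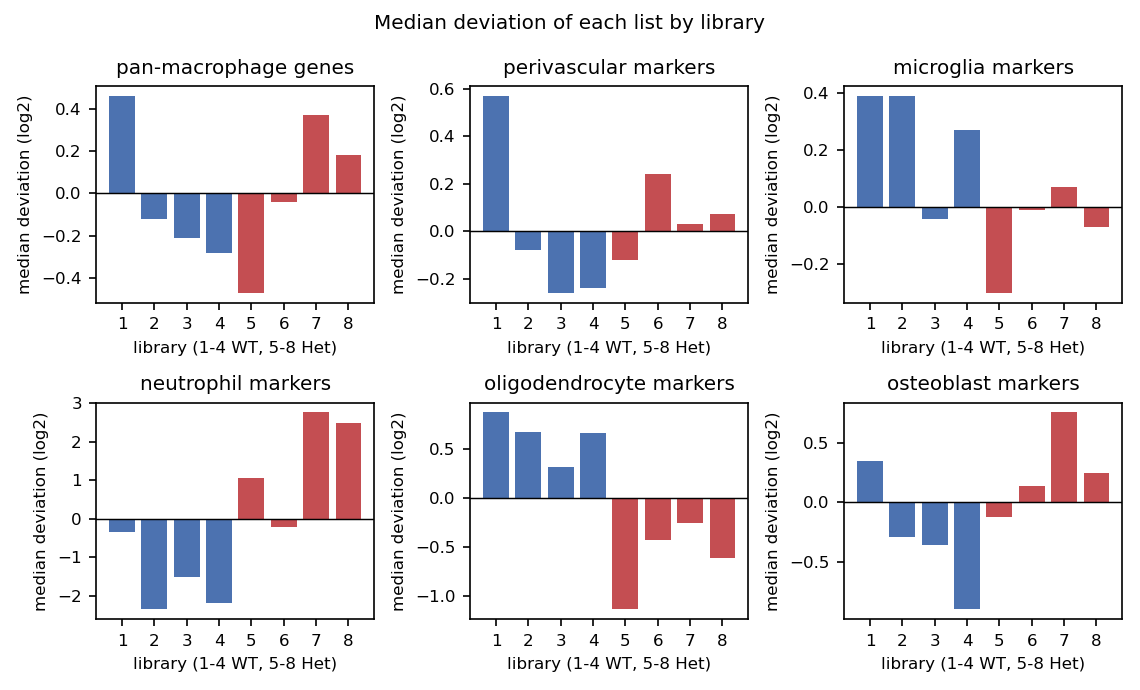
Median deviation of each list from its genes' means in each library, on the log2 scale, for the 3 subgroups and for markers of neutrophils, oligodendrocytes and osteoblasts, with vertical axes that differ between panels. The pan-macrophage median was highest in wild-type library 1 (0.46), the neutrophil median in library 7 (2.77), and the oligodendrocyte median was below 0 in all 4 libraries labelled heterozygote.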

How the data were processed

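RNA was sequenced from 8 auditory nerve samples as strand-specific poly(A) libraries, per the labels' protocols. STAR, Partek, DESeq2 and the mm10 build are named in the submitters' processing notes. The annotation and the counting method are not given in the sources used here, so reads of overlapping or antisense genes may not be told apart. The authors' deposited signal columns hold counts divided by a size factor per library, as judged from the values. The authors' deposited table also holds the p-value, FDR and ratio of their comparison, the log2 of that ratio, and a signed score of fold change that was not used. The model behind them is not stated.

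The value of 1 read was estimated as the step of which 88.4% to 91.6% of values under 1000 were whole multiples (tolerance 0.05), too few for a count test. 3 reads correspond to 2.37 to 3.89 normalized counts. Genes that reached 10 normalized counts in 4 or more libraries (14870, all 46 members among them) were tested with limma-trend on log2(value + 1), which understates changes of low genes, without covariates and with Benjamini-Hochberg adjustment at 0.05. The fit was tested on simulated data. Each library is 1 mouse, per the labels' protocols, which also state that RNA of low integrity was left out. Levels per kilobase use the longest GENCODE M21 transcript, matched by symbol for 97.6% of genes. Some items are not reported here. Upstream sequences are from RefSeq (GRCm38.p6).

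Values per library are printed for members with an unadjusted p under 0.05 or no overlap and for the 2 most abundant of each list, and up to 3 genes of each other list by p. Other genes named with a value, such as Ptprc, the subunit Ncf4 and the C1q genes, were chosen after their values were seen. Members and lists were chosen with earlier results of these data known. Alternatives were 2 pseudocounts, 2 filters, 2 normalizations, limma-voom on estimated reads, low Xist as a covariate or left out, a loess correction for transcript length (span 0.5), each library left out, and, added later, removal of the 2 libraries highest in S100a9. R 4.3.3, limma 3.58.1, Python 3.11.15, pandas 2.3.3, scipy 1.17.1 and matplotlib 3.10.9 were used.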

Additional observations from a re-analysis of the deposited data

Results flagged for a closer look

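Among 92 groups of 4 libraries (46 members in both genotypes), 6 held 1 library far from the other 3, and chance gives about 1 in 20 groups, or 4.6. The measure is the gap to the nearest library divided by the whole range, judged against Dixon's 95% critical value for 4 samples. Wild-type library 1 was high in Itgam (197.3 normalized counts, gap ratio 0.860) and in Lyz2 (1932, gap ratio 0.855). Wild-type library 4 was low in Ccr2 (4.8, gap ratio 0.962) and wild-type library 2 in Aif1 (44.9, gap ratio 0.944). Wild-type library 3 was high in Cd86 (70.6, gap ratio 0.911), and heterozygote-labelled library 5 was low in Fcgr2b (44.5, gap ratio 0.974). None of these 6 genes had an unadjusted limma-trend p under 0.05.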

How the results depend on the processing

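No member passed the adjusted threshold in any of the 19 alternatives run (lowest limma-trend adjusted p 0.0858, for Tmem119 without the 2 libraries low in Xist). The 6 members with an unadjusted p under 0.05 kept their direction in all 19. These 6 were picked by their p in the same libraries that the alternatives refit, so a kept direction is no separate support. Of the 46 members, 31 changed sign in at least 1 alternative. The number of all genes past the adjusted threshold, 12 as reported, was 7 with quantile normalization, 30 with the correction for transcript length and 0 without the 2 libraries highest in S100a9. With 1 library left out at a time it ran from 0 to 221 (0 without replicate 2, 4 or 8, 6 without replicate 7, 7 without replicate 5, 221 without replicate 3). Members higher at an unadjusted p under 0.05, 3 as reported, numbered 8 without the 2 libraries low in Xist (17.4%, beside 7.16% of all genes). Without the 2 libraries highest in S100a9 they numbered 0, beside 1.89% of all genes. They numbered 1 to 6 over the fits without a library (1 without library 7 or 8, 6 without library 5, 5 without wild-type library 3). Members lower, 3 as reported, numbered 0 without the 2 libraries low in Xist, beside 6.37% of all genes, and 2 to 3 over the fits without a library. For the fits without a library the share of all genes at an unadjusted p under 0.05 is not given. Those counts therefore cannot be set against genes at large. The median of the microglia markers, -0.16 as reported, was -0.39 without the 2 libraries highest in S100a9 and -0.29 to -0.10 over the fits without a library. Removing libraries leaves fewer samples; other causes were not tested. P2ry12 had an unadjusted p under 0.05 in 17 alternatives, Siglech and Tmem119 in 18 each, Cybb in 15, Ms4a6c in 14 and Trem2 in 13. Such counts of alternatives are not given for genes at large. No paired analysis was possible because the genotypes share no replicate numbers. With 13363365 to 21507209 estimated reads per library, the lowest members, such as Ccr2, rest on few reads.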
